A study of Mus musculus with 16 samples.

Results

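The genes described here encode nuclear subunits of respiratory complexes II to V. A list of 36 gene symbols was looked up in a deposited table of 18111 gene symbols, and 31 were found there. These were 3 subunits of complex II (Sdhb, Sdhc, Sdhd), 6 of complex III (Uqcrc1, Uqcrc2, Uqcrfs1, Cyc1, Uqcrq, Uqcrh), 8 of complex IV (Cox4i1, Cox5a, Cox5b, Cox6a1, Cox6b1, Cox6c, Cox7a2, Cox7b) and 14 of complex V (Atp5a1, Atp5b, Atp5c1, Atp5d, Atp5e, Atp5f1, Atp5g2, Atp5g3, Atp5h, Atp5j, Atp5j2, Atp5k, Atp5l, Atp5o). Sdha, Uqcrb, Cox7c, Cox8a and Atp5g1 were not analysed here. The symbols of the 31 genes are those of the deposited table. In the RefSeq annotation Atp5f1, the b subunit of the peripheral stalk, is called Atp5pb.

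The study asked what loss of NAD does to gene expression, and used FK866, an inhibitor of NAMPT, the enzyme that turns nicotinamide into nicotinamide mononucleotide in the NAD salvage pathway. Cells came from wild-type B6 mice and were cultured for 48 hours in 4 groups of 4 arrays each. The groups were primary hepatocytes with 0.1% DMSO, primary hepatocytes with 200 nM FK866, primary pancreatic islets with 0.1% DMSO, and primary islets with 10 nM FK866. The dose differed between the tissues. Neither the number of animals behind an array nor any pooling of animals is given in the sources used here. The p-values therefore measure the spread between arrays, which may be technical.

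The respiratory chain sits in the inner mitochondrial membrane. Complex I takes electrons from NADH and complex II takes them from succinate, both pass them to ubiquinone, complex III passes them on to cytochrome c, and complex IV gives them to oxygen. Complexes I, III and IV pump protons, and complex V, the ATP synthase, uses the returning protons to make ATP. In the beta cells of islets this ATP couples glucose oxidation to insulin release, and in hepatocytes it supplies gluconeogenesis and urea synthesis. All 4 subunits of complex II are encoded in the nucleus, while complexes III, IV and V also hold mitochondrially encoded subunits, which are not among the genes described here.

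Values are log2 of background-corrected, quantile-normalized probe signals, with 1 probe for each gene. To be tested in a comparison, a gene's probe had to stand above background (detection p under 0.05) on 4 or more of the 8 arrays compared. By this rule 28 of the 31 genes were tested in every comparison. The Rieske iron-sulfur protein Uqcrfs1, the complex III subunit Uqcrq and the ATP synthase membrane subunit Atp5k were detected on 0 of 16 arrays and were not tested, so no level is given for them. Of the 28 tested genes, Cox7b was detected on 15 arrays and the others on all 16. The median raw signal of all probes was 26.9 to 33.1 on 14 arrays, but 15.4 on the control islet array numbered 2 and 18.0 on the FK866 islet array numbered 2, so islet results are given with and without these arrays. Of 10 hepatocyte marker genes on the array, 8 were detected on all 4 control hepatocyte arrays and 3 on all 4 control islet arrays. Of 10 beta cell markers, 8 were detected on all 4 control islet arrays and 3 on all 4 control hepatocyte arrays. Ins2, Pdx1, Nkx6-1, G6pc2 and Slc30a8 were detected on none of the control hepatocyte arrays, and Pcsk1 on none of the control arrays of either tissue. The other beta cell markers, Ins1, Iapp, Mafa and Slc2a2, were each detected on at least 1 control hepatocyte array. Ins1, Iapp and Slc2a2 were detected on all 4 FK866 hepatocyte arrays.

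The subunit genes were steady between hepatocyte arrays and varied widely between islet arrays. The median over genes of the SD between the 4 arrays of a group was 0.06 in control hepatocytes and 0.09 in FK866 hepatocytes (log2). It was 0.75 in control islets and 0.31 in FK866 islets, and fell to 0.15 and 0.08 when the arrays numbered 2 were left out. On the control islet array numbered 2, 24 of the 28 genes lay below the mean of the group's other 3 arrays, with a median of -1.15. On the FK866 islet array numbered 2, 23 of the 28 lay below, with a median of -0.56. The same genes were displaced on both arrays: Pearson's r between the deviations was 0.95 over the 28 genes, which are not independent of each other, and the arrays share a number. Over all genes tested in islets, the deviations of these arrays from their group means correlated at 0.926. The shared displacement was therefore not particular to the subunit genes. The displacement was uneven within the ATP synthase. Atp5f1 lay -3.60 from the others on the control array and -2.82 on the FK866 array, whereas Atp5e, the epsilon subunit of the F1 head, lay 1.70 and 1.11 from them. Over all genes tested the medians of the same deviations were 0.02 and 0.04, values that quantile normalization holds near 0.

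**Figure D1:**
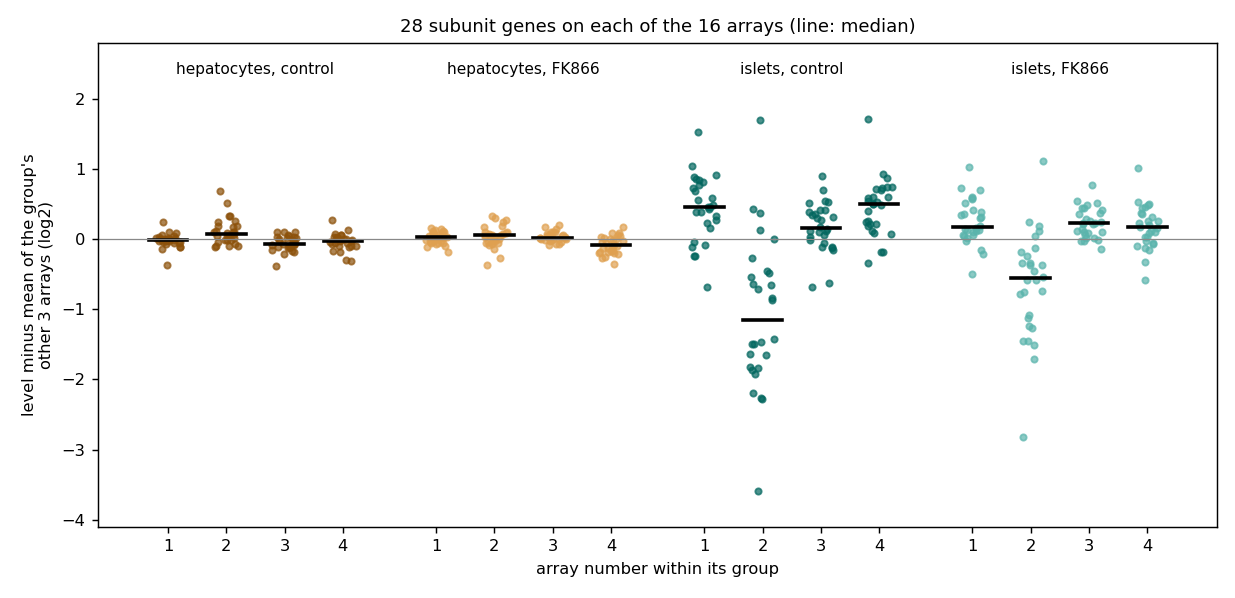
Level of each of the 28 tested subunit genes on each of the 16 arrays, minus the mean of the other 3 arrays of its group (log2, y axis), by array number within group (x axis); points are genes and lines are medians. The arrays numbered 2 in both islet groups sit low, with medians of -1.15 and -0.56, and hepatocyte arrays stay near 0.

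Markers of some cell types also moved with these arrays, and their part in the subunit levels was not tested. The mean log2 signal of 6 detected markers out of 10 for fibroblasts and stellate cells ranged from 7.10 to 8.64 in control islets and from 7.04 to 7.90 in FK866 islets, with the array numbered 2 the highest in each group and Lum and Tagln not detected. The mean of 7 detected markers out of 10 for alpha, delta and PP cells ranged from 13.3 to 13.7 in control islets and from 12.8 to 13.6 in FK866 islets, with the array numbered 2 the lowest in each. Of the acinar list, 3 of 8 genes on the array were detected on at least 4 arrays, and their mean ranged from 5.53 to 7.58 in control islets and from 5.67 to 6.96 in FK866 islets. Its highest array in both groups was the one numbered 3. By the median over markers, the other lists moved less. On the islet arrays numbered 2, 9 detected beta cell markers lay at medians of -0.04 (control) and -0.002 (FK866) from their group's other arrays. Their mean was still the lowest of the control islets, at 11.9 on array 2. Such medians were 0.07 and 0.04 for macrophage, -0.13 and -0.03 for duct, -0.21 and 0.19 for endothelial and 0.21 and 0.15 for hepatocyte markers.

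Control islets and control hepatocytes differed in 10 of the 28 subunit genes in limma, with p-values adjusted by Benjamini-Hochberg over all 9364 genes tested. Of these, 1 was higher in islets, where 35.1% of all genes tested were called higher, and 9 were lower, where 31.5% of all genes were called lower. The lower genes were Sdhb, Sdhc, Sdhd, Uqcrc1, Cyc1, Cox4i1, Cox5a, Cox7b and Atp5o, and the higher gene was Cox7a2. The share called lower, 32.1% of the subunit genes, lay near that of all genes, while the share called higher was 3.57%. The median difference of the 28 genes was -0.26 (log2, islets minus hepatocytes), against 0.06 over all genes. Without control hepatocyte array 2 the count of called subunits was 6, where 60.1% of 8736 genes were called, against 66.7% of all genes on all arrays. Fewer cells of a type and less RNA per cell cannot be told apart in such bulk samples.

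Leaving out both islet arrays numbered 2 changed this picture. Then 15 of the 28 genes were called, 7 higher and 8 lower, against 36.6% of 8565 genes called higher and 39.4% called lower, and the median difference turned from -0.26 to 0.07. The 8 genes called lower were all among the 9 called lower on all arrays. Of the 7 called higher, Cox7a2 was also called on all arrays, while Uqcrc2, Cox6a1, Cox6c, Atp5j, Atp5g2 and Atp5g3 were not. Of these 6, Cox6c and Atp5g2 were also called with control islet array 2 alone left out. Uqcrc2, Cox6a1, Atp5j and Atp5g3 had a difference below 0 on all arrays that did not pass the test.

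The FK866 arrays gave the tissue comparison a second time. They are not independent of the control arrays, since control and FK866 arrays of the same number deviated together within each tissue. On all arrays 7 of the 28 genes were called, 2 higher (Cox7a2, Atp5g2) and 5 lower (Sdhc, Uqcrc1, Cox4i1, Cox5a, Atp5o), against 34.6% of 9372 genes called higher and 29.6% called lower. Without the islet arrays numbered 2, 12 were called, 5 higher and 7 lower, against 36.1% of 8471 genes called higher and 38.7% called lower. The median difference of the subunit genes was -0.16 with these arrays and 0.06 without them. The genes called lower in both tissue comparisons, with and without the islet arrays numbered 2, were Sdhc, Uqcrc1, Cox4i1, Cox5a and Atp5o. Cox7a2 was the gene called higher in all 4 of these sets. Without FK866 hepatocyte array 1 the count on the FK866 arrays was 4, where 57.8% of 8746 genes were called, against 64.2% of all genes on all arrays.

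**Figure D2:**
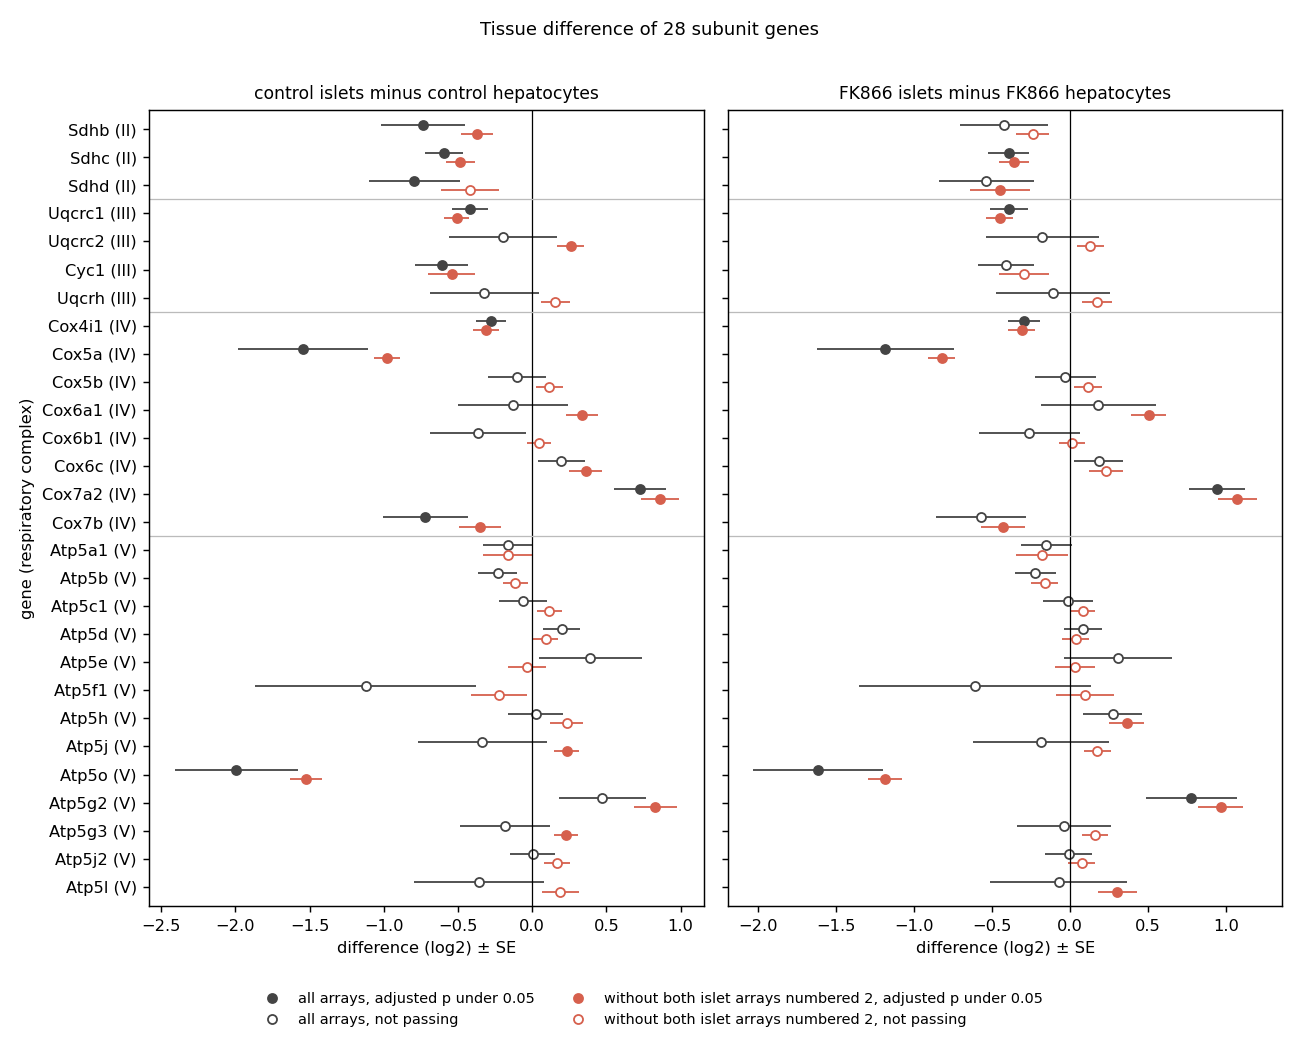
Difference between islets and hepatocytes (log2 ± SE, x axis) of the 28 tested subunit genes (y axis, grouped by complex) in the controls (left) and with FK866 (right), on all arrays (dark) and without both islet arrays numbered 2 (red); filled points passed an adjusted p of 0.05. Atp5o and Cox5a lie lowest and Cox7a2 highest in both panels, and most bars shorten where the arrays numbered 2 are left out.

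Complex II was lower in control islets in all 3 of its tested subunits, with a median difference of -0.74. Sdhc, which anchors the complex in the membrane, read 12.33, 12.34, 12.37 and 12.62 on control hepatocyte arrays 1 to 4, and 11.94, 11.48, 11.84 and 12.02 on control islet arrays 1 to 4. Every islet array lay below every hepatocyte array. The difference was -0.60 ± 0.13 (SE), 1.51-fold lower, with an adjusted p of 0.000789 by limma. Without the islet arrays numbered 2 it was -0.48 ± 0.10 (adjusted p = 0.000322), and in the FK866 arrays it was -0.39 ± 0.13 (adjusted p = 0.0153, 0.0554 on the deposited scores and 0.0521 with the mean of its 2 probes, 1 of which was detected on no array). The FK866 difference without the islet arrays numbered 2 was -0.36 ± 0.10 (adjusted p = 0.00341). The other anchor, Sdhd, read 9.19, 9.60, 9.08 and 8.98 in control hepatocytes and 9.05, 7.29, 8.38 and 8.95 in control islets, where the groups overlapped. Its difference of -0.79 ± 0.30 passed on all arrays (adjusted p = 0.0311) but not with the array number as a block (0.0922) nor without the islet arrays numbered 2 (-0.42, adjusted p = 0.062). It also missed the threshold when any 1 of control islet arrays 2 (0.0827) and 3 (0.0587) or control hepatocyte arrays 1 (0.0565) and 2 (0.0962) was left out, on median-centred arrays (0.115) and on the deposited scores (0.0573).

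Sdhb, the iron-sulfur subunit that carries electrons from the flavoprotein to ubiquinone, read 11.25, 11.40, 11.20 and 11.19 in control hepatocytes and 11.04, 9.43, 10.66 and 10.98 in control islets. All islet values were lower, and the array numbered 2 was far below the rest. The difference was -0.74 ± 0.28 on all arrays (adjusted p = 0.0312) and -0.37 ± 0.11 without the islet arrays numbered 2 (adjusted p = 0.00571). With only control islet array 2 left out the difference was also -0.37 (adjusted p = 0.0717). FK866 islet array 2 then stayed in the shared spread. With any 1 control hepatocyte array left out the adjusted p was 0.0515 to 0.0743. On median-centred arrays it was 0.104, and on the deposited scores the difference was -0.33 (adjusted p = 0.567). In the FK866 arrays the Sdhb difference was -0.42 ± 0.28 and did not pass (adjusted p = 0.205), nor did it without the islet arrays numbered 2 (-0.24 ± 0.11, adjusted p = 0.0554). A second detected Sdhb probe gave -0.77 in the controls, close to the -0.74 of the probe used.

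Within complex III the core proteins were called in different directions in the controls, but only once the islet arrays numbered 2 were left out. Uqcrc1, a core protein facing the matrix, read 12.25, 12.22, 12.37 and 12.31 in control hepatocytes and 11.69, 12.15, 11.91 and 11.73 in control islets. Every islet array was lower, and the array numbered 2 was the highest of the islet arrays, unlike for most subunits. Its difference was -0.42 ± 0.12 (adjusted p = 0.00695), and -0.39 ± 0.12 in the FK866 arrays (adjusted p = 0.0114). These differences were, without the islet arrays numbered 2, -0.51 ± 0.09 (adjusted p = 8.04e-05) and -0.45 ± 0.09 (adjusted p = 0.000251). On the deposited scores, in place of signals, the adjusted p-values on all arrays were 0.0866 and 0.103. The other core protein, Uqcrc2, read 13.10, 13.16, 13.12 and 13.11 in control hepatocytes and 13.47, 11.55, 13.21 and 13.47 in control islets, so 3 islet arrays lay above all hepatocyte arrays and array 2 far below them. Its difference was -0.20 ± 0.36 on all arrays (adjusted p = 0.644) and 0.26 ± 0.09 without the islet arrays numbered 2 (adjusted p = 0.0156). The latter was the 1 call of Uqcrc2 among 18 alternative settings in the controls. In the FK866 arrays Uqcrc2 differed by -0.18 on all arrays (adjusted p = 0.690). There it passed in 0 of 18 alternative settings, with a lowest adjusted p of 0.189.

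Cyc1, cytochrome c1, which hands electrons to cytochrome c, read 11.78, 11.87, 11.73 and 11.78 in control hepatocytes and 11.47, 10.98, 10.71 and 11.56 in control islets. The groups did not overlap, with islet arrays 2 and 3 the lowest. The difference was -0.61 ± 0.18, 1.53-fold lower (adjusted p = 0.00666), and -0.54 ± 0.16 without the islet arrays numbered 2 (adjusted p = 0.00657). In the FK866 arrays it was -0.41 ± 0.18 and did not pass (adjusted p = 0.0547), nor did it without the islet arrays numbered 2 (-0.30 ± 0.16, adjusted p = 0.108). It passed without FK866 islet array 4 (0.0489), on the deposited scores (0.0375), with the mean of all probes of a gene (0.0483), with an offset of 50 (0.0476) and with each tissue normalized on its own (0.00694). In that last setting the tissues were not on a common scale. Uqcrh, the hinge protein next to cytochrome c1, did not pass in either comparison, with differences of -0.32 in controls and -0.11 with FK866 on all arrays. Both lay above 0 without the islet arrays numbered 2, at 0.16 (adjusted p = 0.158) and 0.17 (adjusted p = 0.122).

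Complex IV, cytochrome c oxidase, held Cox7a2, the 1 gene called higher on all control arrays, and 3 genes called lower. Its tested members are small nuclear-encoded subunits that surround the mitochondrially encoded catalytic core. Cox5a faces the matrix. The bases before its RefSeq start (GRCm38.p6, chr9:57520982-57521231, plus strand) and those of Cox7a2 (chr9:79759854-79760103, minus strand) are shown because these genes carried the lowest and highest difference in the complex. The searched motifs, described further on, would be in capitals, and neither window holds one.
Cox5a: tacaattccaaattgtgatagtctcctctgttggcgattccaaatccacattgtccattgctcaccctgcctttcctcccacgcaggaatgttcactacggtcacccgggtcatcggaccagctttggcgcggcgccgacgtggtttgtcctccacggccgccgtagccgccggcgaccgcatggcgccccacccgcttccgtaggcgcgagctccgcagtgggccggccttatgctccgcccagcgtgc
Cox7a2: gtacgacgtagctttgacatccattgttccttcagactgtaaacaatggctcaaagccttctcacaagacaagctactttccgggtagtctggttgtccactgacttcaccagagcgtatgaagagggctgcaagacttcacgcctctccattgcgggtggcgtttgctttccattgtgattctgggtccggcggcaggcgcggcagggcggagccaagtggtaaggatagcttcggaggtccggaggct

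Cox5a read 13.79, 13.88, 13.77 and 13.78 in control hepatocytes, 13.76, 13.80, 13.81 and 13.83 in FK866 hepatocytes, 12.87, 10.55, 12.67 and 12.95 in control islets and 13.06, 11.53, 12.90 and 12.99 in FK866 islets. All 8 islet values lay below all 8 hepatocyte values, and the array numbered 2 was the lowest in each islet group. The control difference was -1.55 ± 0.44, 2.92-fold lower (adjusted p = 0.00561), and -0.98 ± 0.09 without the islet arrays numbered 2 (adjusted p = 1.02e-07). The FK866 difference was -1.18 ± 0.44 (adjusted p = 0.0272). It missed the threshold when any 1 FK866 hepatocyte array was left out (0.0503 to 0.0537). Without FK866 islet array 2 alone it was -0.82 (adjusted p = 0.102), with control islet array 2 still in the shared spread. Without both islet arrays numbered 2 it was -0.82 ± 0.09 (adjusted p = 7.03e-07).

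Cox7a2, the isoform of subunit VIIa found in most tissues, read 9.10, 9.29, 9.10 and 8.88 in control hepatocytes, 9.14, 9.12, 9.15 and 8.88 in FK866 hepatocytes, 10.18, 9.42, 9.70 and 9.98 in control islets and 10.24, 9.61, 10.12 and 10.09 in FK866 islets. Every islet array lay above every hepatocyte array, including the arrays numbered 2, which were the lowest of the islet arrays. The difference was 0.73 ± 0.18 in controls, 1.66-fold higher (adjusted p = 0.00189), and 0.94 ± 0.18 with FK866, 1.92-fold higher (adjusted p = 0.000219). Without the islet arrays numbered 2 it was 0.86 ± 0.13 in controls (adjusted p = 1.95e-05) and 1.08 ± 0.13 with FK866 (adjusted p = 1.91e-06). Under the 18 alternative settings run for each comparison Cox7a2 passed in all 18 of both, with control differences of 0.61 to 0.86.

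Cox4i1, the subunit IV isoform found in most tissues, showed the smallest difference among the calls on all arrays. It read 14.33, 14.49, 14.27 and 14.31 in control hepatocytes and 14.01, 14.17, 13.98 and 14.12 in control islets, with no overlap and with array 2 among the rest. The difference was -0.28 ± 0.10 in controls (adjusted p = 0.0263; 0.0639 with the array number as a block) and -0.29 ± 0.10 with FK866 (adjusted p = 0.0203; 0.0521 with the block). Leaving out the islet arrays numbered 2 gave -0.31 ± 0.09 (adjusted p = 0.00444) and -0.31 ± 0.09 (adjusted p = 0.00497). On the deposited scores neither passed, with adjusted p-values of 0.214 in controls and 0.198 with FK866. The control call also ended without control islet array 1 (0.0568) or 3 (0.0541) or control hepatocyte array 2 (0.0884). The FK866 call also ended without FK866 islet array 4 (0.0579) or FK866 hepatocyte array 1 (0.0514) or 2 (0.0525).

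Cox7b, a small subunit encoded on the X chromosome, read 7.60, 7.66, 7.12 and 7.27 in control hepatocytes and 6.94, 5.58, 7.01 and 7.25 in control islets, where array 2 stood apart. The probe was detected on 3 of these 4 islet arrays. Its control difference was -0.72 ± 0.29 (adjusted p = 0.0374, 0.0515 with the block), and -0.35 ± 0.14 without the islet arrays numbered 2 (adjusted p = 0.0342). Without control islet array 2 alone the difference was also -0.35, but the call ended (0.0947), with FK866 islet array 2 still in the shared spread. The call also ended without control hepatocyte array 1 (0.0896), 2 (0.0982) or 4 (0.052). It also ended on median-centred arrays (0.126), on the deposited scores (0.0697) and with no detection filter (0.0543). In the FK866 arrays the difference was -0.57 ± 0.29 (adjusted p = 0.0978), and -0.43 ± 0.14 without the islet arrays numbered 2 (adjusted p = 0.0126).

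Cox6a1 and Cox6c were among the subunits whose direction or call turned on the islet arrays numbered 2. Cox6a1, the liver-type isoform of subunit VIa, read 13.78, 13.78, 13.82 and 13.80 in control hepatocytes and 14.35, 12.29, 13.93 and 14.11 in control islets. Islet arrays 1, 3 and 4 were above all hepatocyte arrays and array 2 was far below. Its difference was -0.13 ± 0.37 (adjusted p = 0.772), and 0.34 ± 0.11 without the arrays numbered 2 (adjusted p = 0.0124). In the same setting the FK866 difference of Cox6a1 was 0.50 ± 0.11 (adjusted p = 0.000729). Cox6c passed the threshold in controls without these arrays (0.36 ± 0.11, adjusted p = 0.00878) but not in the FK866 arrays (0.23 ± 0.11, adjusted p = 0.0729). Cox5b and Cox6b1 were called in neither comparison with or without these arrays. A second detected Cox6b1 probe gave -0.76 in the controls on all arrays, against -0.36 for the probe used.

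In complex V, 1 of 13 tested subunits was called in the controls on all arrays, and it had the largest difference of the 28 genes. Atp5o is the oligomycin sensitivity conferral protein, which links the peripheral stalk to the catalytic F1 head. Atp5g2 encodes one of the precursors of the c subunit, whose ring turns in the membrane as protons pass. The bases before their RefSeq starts are shown because they lay at opposite ends of the complex V differences: Atp5o on GRCm38.p6 chr16:91931631-91931880, minus strand, and Atp5g2 on chr15:102671048-102671297, minus strand. Capitals in Atp5g2 mark overlapping matches to the nuclear respiratory factor 1 core on both strands, and Atp5o holds no searched motif.
Atp5o: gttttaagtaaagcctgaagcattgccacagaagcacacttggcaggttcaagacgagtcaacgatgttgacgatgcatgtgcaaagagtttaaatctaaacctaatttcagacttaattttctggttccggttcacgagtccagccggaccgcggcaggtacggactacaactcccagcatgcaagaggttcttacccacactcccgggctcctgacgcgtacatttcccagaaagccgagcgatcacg
Atp5g2: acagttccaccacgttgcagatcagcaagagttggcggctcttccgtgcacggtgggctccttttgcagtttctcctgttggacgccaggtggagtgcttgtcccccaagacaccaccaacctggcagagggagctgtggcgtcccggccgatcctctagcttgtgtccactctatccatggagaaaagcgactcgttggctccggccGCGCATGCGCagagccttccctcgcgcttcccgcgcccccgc

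Atp5o read 10.26, 10.36, 10.37 and 10.40 in control hepatocytes, 10.42, 10.40, 10.51 and 10.28 in FK866 hepatocytes, 9.02, 6.95, 8.56 and 8.88 in control islets and 9.34, 7.50, 9.12 and 9.18 in FK866 islets. All islet values lay below all hepatocyte values, with the arrays numbered 2 the lowest. The group means were 10.35 ± 0.06 and 8.35 ± 0.95 (SD, n = 4) in the controls. The difference was -1.99 ± 0.42, 3.98-fold lower in islets (adjusted p = 0.000539 by limma), and -1.52 ± 0.11 without the islet arrays numbered 2 (adjusted p = 8.42e-09). With FK866 it was -1.62 ± 0.42, 3.06-fold lower (adjusted p = 0.00299), and -1.19 ± 0.11 without those arrays (adjusted p = 1.47e-07). Across the 18 alternative settings the call held in all 18 in both comparisons, and the control difference ranged from -2.22 to -1.52.

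Atp5g2 read 11.20, 11.41, 11.15 and 11.16 in control hepatocytes and 12.04, 10.63, 11.78 and 12.35 in control islets, so that 3 islet arrays were above all hepatocyte arrays and array 2 was below them. FK866 islets read 12.31, 11.46, 12.34 and 11.98, where array 2 overlapped the FK866 hepatocyte arrays. The control difference was 0.47 ± 0.29 (adjusted p = 0.166), 0.83 ± 0.14 without both arrays numbered 2 (adjusted p = 0.000102) and past the threshold also without control islet array 2 alone (0.00161). With FK866 it was 0.78 ± 0.29, 1.72-fold higher (adjusted p = 0.0287). That call ended without FK866 islet array 1 (0.0812) or 3 (0.0831) and without FK866 hepatocyte array 1 (0.0515), 3 (0.0613) or 4 (0.0742). It also ended on median-centred arrays (0.175) and with each tissue normalized on its own (0.0755), while without both arrays numbered 2 the difference was 0.97 ± 0.14 (adjusted p = 2.29e-05). Atp5g3, another c subunit gene, read 14.90, 14.92, 14.78 and 14.86 in control hepatocytes and 15.02, 13.44, 15.21 and 15.05 in control islets, with array 2 far below the others. The direction of its difference depended on the setting: -0.19 ± 0.30 on all arrays (adjusted p = 0.602) and 0.23 ± 0.08 without the arrays numbered 2 (adjusted p = 0.0207). On all arrays Atp5g3 was called lower on the deposited scores (-0.45, adjusted p = 0.0329) and with each tissue normalized on its own (-0.67, adjusted p = 0.0383). The c subunit genes encode the same mature protein, and cross-hybridization between their probes was not tested.

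The catalytic head of the ATP synthase gave no call in either comparison in the main fit on all arrays. Atp5b, the beta subunit that carries the catalytic sites, read 15.29, 15.21, 15.33 and 15.22 in control hepatocytes and 15.003, 14.67, 15.25 and 15.19 in control islets, with some overlap. Its difference was -0.23 ± 0.13 (adjusted p = 0.129), and -0.11 ± 0.09 without the islet arrays numbered 2 (adjusted p = 0.246). On all arrays it passed with median centring (-0.70, adjusted p = 0.0065), on the deposited scores (-0.50, 0.024) and where each tissue was normalized on its own (-0.77, 5.81e-05). The last of these sets values from separate scales against each other. The FK866 difference was -0.22 (0.153) in the main fit and passed in those settings too, at -0.69 (0.00734), -0.48 (0.0319) and -0.77 (6.42e-05). The raw signal of Atp5b reached 80.4% of that of the brightest probe on an array. Atp5a1, Atp5c1, Atp5d and Atp5e, the alpha, gamma, delta and epsilon subunits, differed by -0.17, -0.06, 0.20 and 0.39 in the controls and did not pass. Leaving out the islet arrays numbered 2 gave -0.17, 0.12, 0.09 and -0.03, so that Atp5c1 and Atp5e changed sign, and none passed. In the peripheral stalk, Atp5f1 read 11.79, 11.87, 11.87 and 11.82 in control hepatocytes and 11.86, 8.02, 10.98 and 11.99 in control islets. Its difference of -1.12 had an SE of 0.74, the widest of the 28 genes, and was -0.22 ± 0.19 without the arrays numbered 2. Atp5j, coupling factor 6 of the stalk, was called higher without those arrays in the controls (0.23 ± 0.08, adjusted p = 0.0219), and in the FK866 arrays Atp5h, the stalk's d subunit (0.37 ± 0.11, adjusted p = 0.00829), and Atp5l, the membrane subunit g (0.30 ± 0.12, adjusted p = 0.0384), were.

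**Figure D3:**
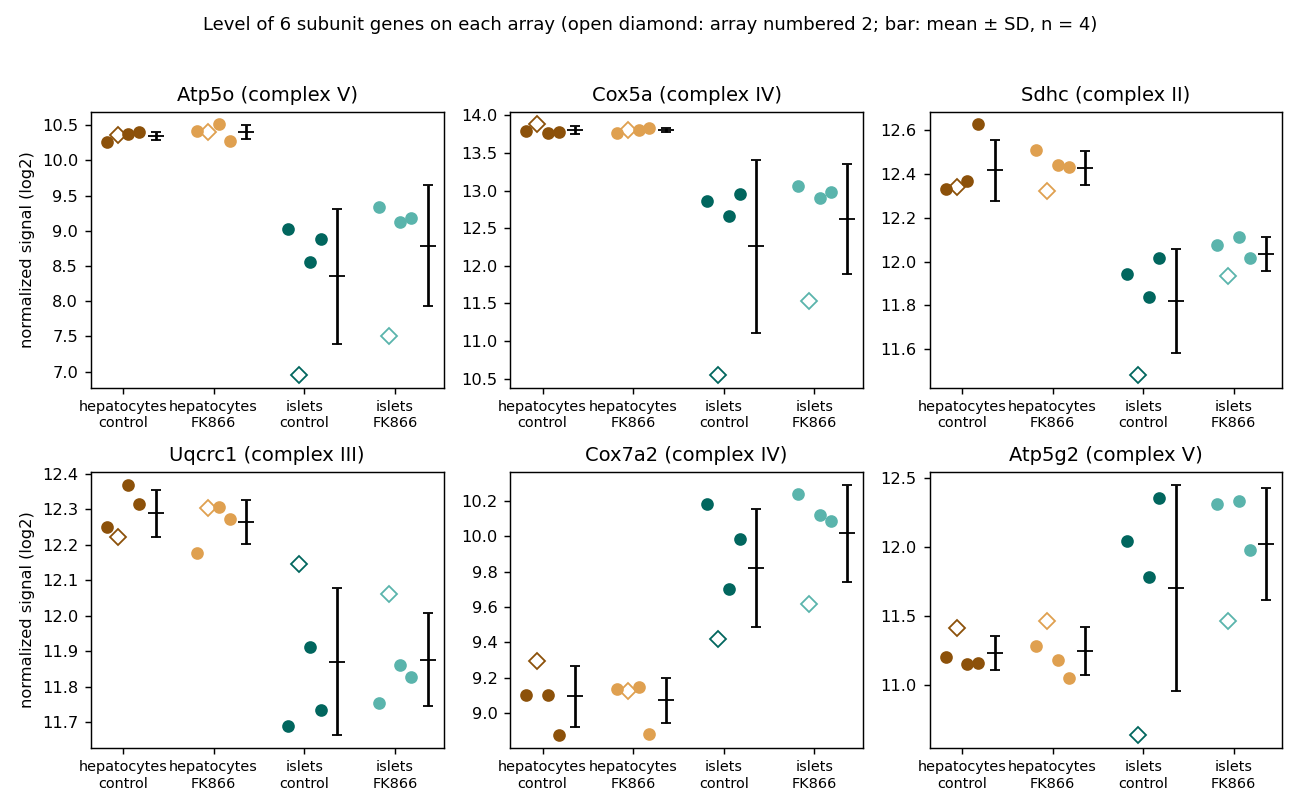
Normalized signal (log2, y axis) of 6 subunit genes on the 4 arrays of each group (x axis); open diamonds are the arrays numbered 2, and bars are means ± SD (n = 4). Atp5o, Cox5a, Sdhc and Uqcrc1 lie lower on every islet array, Cox7a2 lies higher on every islet array, and Atp5g2 is higher except on the arrays numbered 2.

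RefSeq promoter windows, 250 bases before to 50 after the start (GRCm38.p6), were found for 22 of the 28 tested genes. They were searched on both strands for the letters GCGCATGCG (nuclear respiratory factor 1 core), CCGGAAG (the core bound by GABPA), TCAAGGTCA (estrogen-related receptor alpha element) and AAGATGGCG (YY1 core), which are known from promoters of respiratory genes. The GABPA core was present in 9 of 22 windows (40.9%), in Sdhb, Sdhd, Uqcrh, Cox6a1, Cox6b1, Atp5e, Atp5h, Atp5j and Atp5l, against 9.93% of 27025 genes with a window. The nuclear respiratory factor 1 core was present in 4 of 22 (18.2% against 1.95%), in Uqcrc1, Cox6a1, Atp5g2 and Atp5l, and its 9 letters overlap their own reverse complement, so 1 site can match on both strands. The estrogen-related receptor alpha element was present in Sdhd and Atp5g3 (9.09% against 0.466%), and the YY1 core in Atp5j and Atp5j2 (9.09% against 1.64%). The 27025 genes were not limited to genes detected on these arrays, unlike the 22 subunit genes, so the shares come from unlike sets. These matches describe the letters in the windows and were set against no measure of binding.

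FK866 left the subunit genes of hepatocytes without a called change. At 200 nM 0 of the 28 genes passed, and 0 of 8563 genes tested did (0% called). At an unadjusted p under 0.05, limma gave 0 of the 28 and 145 of all genes, and with the array number as a block it again called 0 genes and 0 subunits. The block gave an unadjusted p under 0.05 for 0 of the 28 and 535 of all genes. The median change was -0.01 (log2, FK866 minus control), against 0.0004 over all genes, with 10 genes above 0 and 18 below. The 95% confidence intervals of all 28 genes lay between -0.39 (Cox7b) and 0.41 (Atp5a1), so a 2-fold change lay outside each of them. The largest change was in Cox7b, which read 7.62, 7.69, 7.17 and 7.31 without and 7.32, 7.36, 7.46 and 7.20 with FK866 on the hepatocyte scale. Its change was -0.11 ± 0.13, and the same-numbered arrays differed by -0.30, -0.33, 0.30 and -0.10, in both directions.

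The next largest changes in hepatocytes were -0.08 ± 0.10 for Cox6c, -0.07 ± 0.07 for Atp5j2, -0.07 ± 0.08 for Atp5h, 0.06 ± 0.08 for Cox5b and 0.06 ± 0.08 for Atp5o, and none passed. By complex, the median changes in hepatocytes were 0.005 for complex II, -0.02 for complex III, -0.01 for complex IV and -0.003 for complex V. These lie within the spread between the 4 same-numbered pairs, whose medians over the 28 genes were 0.02, -0.003, 0.05 and -0.05.

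In islets, 10 nM FK866 gave 0 called subunit genes of 28 and 0 of 8919 genes tested (0% called). At an unadjusted p under 0.05 limma gave 0 of the 28 and 121 of all genes. With the array number as a block it called 1 gene, which is not a subunit gene, and Atp5o had the lowest adjusted p of the subunits (0.309). The block gave an unadjusted p under 0.05 for 1 of the 28 and 1032 of all genes. The median change of the 28 genes was 0.16, against -0.003 over all genes, with 24 above 0 and 4 below. This median rested on the arrays numbered 2. The medians of the 4 same-numbered pairs were 0.01, 0.50, 0.19 and -0.05, and without the pair numbered 2 the median was 0.03 with 16 genes above 0. Without control islet array 2 alone it was -0.12, with 7 genes above 0.

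In islets Cox5a, Cox6a1, Cox7a2 and Atp5o were higher with FK866 in all 4 same-numbered pairs, without passing the test. The share of all genes with this pattern was not counted. Pair by pair, 16, 24, 18 and 10 of the 28 genes were higher, against 4446, 4401, 3959 and 4443 of 8919 genes. On the islet scale Atp5o read 8.995, 6.91, 8.53 and 8.85 without and 9.31, 7.48, 9.09 and 9.15 with FK866, and each FK866 array was above the control array of the same number, by 0.31, 0.57, 0.57 and 0.30. The groups overlapped, and the change of 0.44 ± 0.56 did not pass in the fit that ignores array numbers (95% interval -0.83 to 1.71). With the array number as a block, where the SEs of the 28 genes were 0.12 to 0.26, it did not pass either (adjusted p = 0.309). Without the arrays numbered 2 it was 0.39 ± 0.15 (adjusted p = 0.764). The largest estimate was that of Atp5f1, 0.45 ± 0.96, with pair differences of 0.08, 1.04, 0.74 and -0.05. None of the others passed either: the estimates were 0.35 ± 0.57 for Cox5a, 0.31 ± 0.37 for Sdhb, 0.31 ± 0.37 for Atp5g2 and 0.30 ± 0.56 for Atp5l. In these 4 genes and in Atp5f1 the pair numbered 2 gave the highest difference. The 95% interval lay within 2-fold for 15 of the 28 genes on all arrays, and for 28 of 28 with the array number as a block or without the arrays numbered 2.

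**Figure D4:**
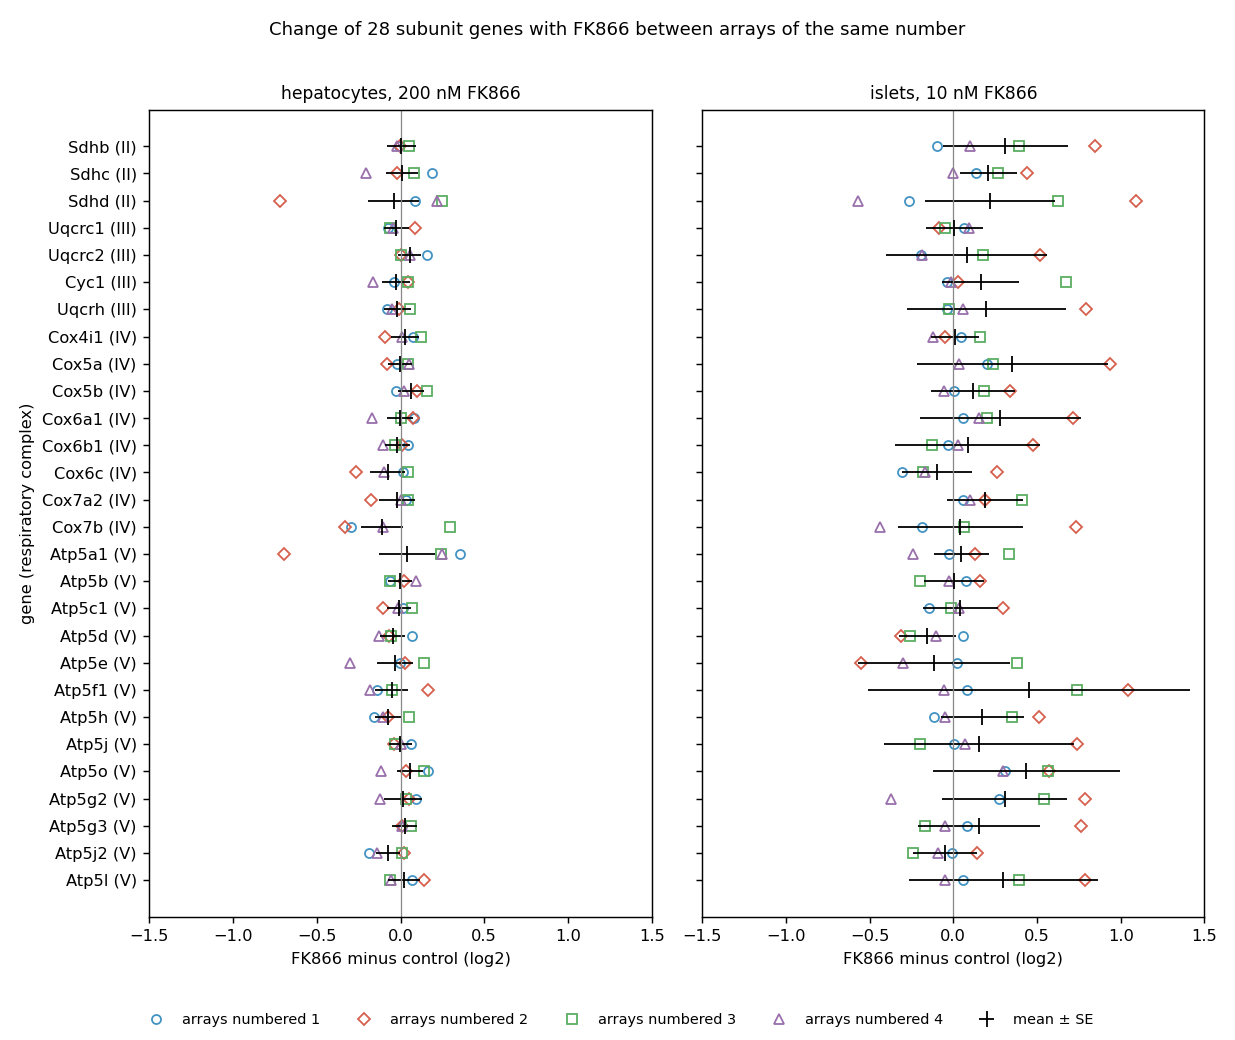
Change of the 28 tested subunit genes with FK866 (log2, x axis) in hepatocytes (left) and islets (right), for each pair of arrays with the same number (symbols) and as the mean ± SE of the fit (black). Hepatocyte means lie between -0.11 and 0.06; in islets the pair numbered 2 lies farthest right for most genes, and its median is 0.50.

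The difference between the tissues in their change with FK866 was tested as an interaction over 7522 genes. It was called for 0 of the 28 subunit genes and for 0 genes in all (0% called). The largest estimates were 0.52 ± 1.05 for Atp5f1 and 0.38 ± 0.59 for Atp5o (islet change minus hepatocyte change). At an unadjusted p under 0.05 limma gave 0 of the 28 and 83 of all genes, and with the array number as a block it called 3 genes, none of them a subunit gene. Without the islet arrays numbered 2 it called 1 of 7414 genes and 0 subunit genes, with 0.32 ± 0.26 for Atp5f1 and 0.34 ± 0.15 for Atp5o. The doses differed between the tissues, so tissue and dose cannot be told apart here.

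Other genes of the respiratory chain were counted in the same fit, where 35.1% of all genes were called higher and 31.5% lower on all control arrays, and 36.6% and 39.4% without the islet arrays numbered 2. Of 32 tested complex I subunits, 8 were called higher and 1 lower in control islets on all arrays, and 18 higher and 5 lower without the islet arrays numbered 2. The complex I genes with the largest called differences were Ndufb2, at 1.24 ± 0.19 (adjusted p = 3.43e-05), and Ndufab1, the mitochondrial acyl carrier protein, at -1.07 ± 0.15 (adjusted p = 1.16e-05). Without these arrays both kept their calls, at 1.04 and -1.14. Of 10 other subunits and tissue isoforms, 3 were called higher and 1 lower, and 6 and 1 without the islet arrays numbered 2. Cox6a2, the subunit VIa isoform known from heart and skeletal muscle, read 7.02, 7.77, 6.82 and 7.20 in control hepatocytes and 13.17, 14.24, 13.25 and 13.39 in control islets. All islet values were far above all hepatocyte values, a difference of 6.31 ± 0.27 or 79.4-fold (adjusted p = 7.37e-12; log2 6.07 without the islet arrays numbered 2), while that of its counterpart Cox6a1 did not pass on the same arrays. Ndufa4, an accessory subunit of complex IV first assigned to complex I, was lower by 3.04-fold (-1.60 ± 0.43, adjusted p = 0.00364), and its log2 difference was -1.04 without the islet arrays numbered 2. Atpif1, the ATP synthase inhibitor, was higher by 1.43-fold (0.51 ± 0.11, adjusted p = 0.000825), or 0.57 on the log2 scale without those arrays.

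Among 12 tested electron carriers and ubiquinone synthesis genes, 1 was called higher (8.33%) and 6 lower (50%) in control islets, and 3 and 6 without the islet arrays numbered 2. Etfdh, which passes electrons from fatty acid oxidation to ubiquinone, was 2.96-fold lower (-1.56 ± 0.63, adjusted p = 0.0386), and -0.69 ± 0.15 on the log2 scale without the islet arrays numbered 2. Etfa, a subunit of the flavoprotein that feeds Etfdh, differed by -1.33 ± 0.46 (adjusted p = 0.019), or -0.69 ± 0.09 without those arrays, and Coq4, of ubiquinone synthesis, by 1.44 ± 0.30 (adjusted p = 0.000527). In the FK866 tissue comparison on all arrays Coq4 passed (1.39, adjusted p = 0.000745). Etfdh (-1.12, adjusted p = 0.133) and Etfa (-0.94, adjusted p = 0.0884) did not, though both passed there without the islet arrays numbered 2 (-0.69 and -0.61). Of 11 assembly factors 4 were called higher and 4 lower (36.4% each, near the shares of all genes), and 5 and 4 without the islet arrays numbered 2. Surf1, needed to assemble complex IV, was 2.55-fold higher (1.35 ± 0.38, adjusted p = 0.00507), Cox19, of copper delivery to complex IV, was 3.07-fold lower (-1.62 ± 0.15, adjusted p = 9.98e-08), and Bcs1l, which places the Rieske protein in complex III, was 2.05-fold higher (1.04 ± 0.17, adjusted p = 6.72e-05). Without these arrays the differences of Coq4, Surf1, Cox19 and Bcs1l were 1.09, 1.81, -1.60 and 0.87, and all passed.

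Of 9 tested regulators of respiratory genes, 2 were called higher (22.2%) and 3 lower (33.3%) in control islets, below and near the 35.1% and 31.5% of all genes. The counts were 4 higher and 4 lower without the islet arrays numbered 2. Gabpa, the DNA-binding subunit of nuclear respiratory factor 2, was called lower, at -1.95 ± 0.25 (adjusted p = 5.16e-06). Its probe was above background on 2 of the 4 control islet arrays, so no fold is given. Esrra, estrogen-related receptor alpha, was 2.38-fold lower (-1.25 ± 0.13, adjusted p = 4.44e-07). Ppargc1b, a coactivator, was 3.39-fold higher (1.76 ± 0.22, adjusted p = 3.22e-06). Without the islet arrays numbered 2 these 3 genes kept their calls, at -1.77, -1.32 and 1.60. The other regulators called on all control arrays were Nrf1, nuclear respiratory factor 1, higher at 1.11, and Tfb2m, lower at -0.77. Of these 5 lists of genes, 0 members were called between FK866 and control in hepatocytes or in islets.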

How the data were processed

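RNA of 16 samples, 4 in each of 4 groups, was hybridized to Illumina bead arrays, per the labels' protocols. The deposited intensity of each probe is on a linear scale with background subtracted, and a deposited p-value for detection stands beside it, per the file headers. The deposited table of gene scores holds, by its values, log10 signals averaged over a gene's probes and scaled to mean 0 and SD 1 within each array. The sources used here name neither scanner software nor array annotation.

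The intensities carry no gene symbols, so probes were named by an exact match of signals to scores, which gave probes for 16643 of 18111 symbols and named 24097 of 25697 probes. In the islet score columns a stretch of 5015 rows is displaced by 1 row: there 0 of 3484 matched genes pointed to the same probes in both tissues as deposited, and 3780 of 3814 did after moving the values. Signals were corrected with limma 3.58.1 (R 4.3.3; normexp by detection p, offset 16), quantile-normalized and put on a log2 scale, over 8 arrays for FK866 comparisons and over 16 for tissue comparisons and the interaction. Genes with several probes were taken by the probe with the highest mean. Genes were tested with lmFit and eBayes with Benjamini-Hochberg adjustment over all genes tested, and called at an adjusted p under 0.05. The tissue comparisons and the interaction were fitted to all 16 arrays with 4 group means. The fit was tested on simulated data.

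The labels do not say whether the replicate numbers pair samples. Deviations from group means of same-numbered arrays correlated at 0.385 to 0.615 in hepatocytes, against -0.369 to 0.0778 for other numbers. In islets the ranges overlapped, at 0.528 to 0.926 against -0.847 to 0.667. Across tissues same-numbered control arrays correlated at -0.119 to 0.0951. The block was an alternative, random for tissue comparisons (correlation 0.703). Other alternatives were median centring, the deposited scores, other filters, an offset of 50, the mean of all probes, trended and robust variance, each tissue normalized on its own, and leaving out arrays. Where each tissue was normalized on its own, the tissues were not on a common scale.

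The subunit genes, the other lists and the set without the islet arrays numbered 2 were chosen with earlier results of these data known. Full statistics were given for up to 3 called genes per direction and complex, for the 6 largest changes with FK866 per tissue, and for up to 3 called genes of each other list. Probe sequences were not used here, so matches to related genes or pseudogenes were not tested. The detection of single markers of alpha, delta and PP cells is not reported here. Promoters came from RefSeq (GRCm38.p6). Python 3.11.15 with matplotlib 3.10.9 drew the figures.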

Additional observations from a re-analysis of the deposited data

Results flagged for a closer look

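Among 112 groups of 4 arrays, 1 for each of 28 subunit genes in each group, 20 held an array whose gap to its nearest neighbour was a larger share of the whole range than Dixon's 95% critical value. Chance alone flags about 1 in 20 groups. On the FK866 islet array numbered 2 the low genes, in normalized log2 signal with the mean of the other 3 arrays beside each, were Atp5f1 (9.06, others 11.88), Atp5g3 (14.27, others 15.05), Atp5h (11.82, others 12.18), Atp5j (12.71, others 14.16), Atp5o (7.50, others 9.21), Cox5a (11.53, others 12.98), Cox5b (13.64, others 14.22), Cox6b1 (12.78, others 13.86) and Uqcrc2 (12.08, others 13.31). On the control islet array numbered 2 they were Atp5g3 (13.44, others 15.09), Atp5j (11.94, others 14.21), Cox5a (10.55, others 12.83), Cox6b1 (12.28, others 13.91), Uqcrc2 (11.55, others 13.38) and Uqcrh (12.29, others 14.21). On that same array Atp5e stood high, at 9.59 against 7.88 on the others.

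In hepatocytes 4 arrays stood apart for single genes, by far smaller gaps. Atp5j read 14.00 on control array 1 against 13.97 on the others, and Cox5a read 13.88 on control array 2 against 13.78. Sdhc read 12.62 on control array 4 against 12.35, and Cox7a2 read 8.88 on FK866 array 4 against 9.14.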

How the results depend on the processing

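Per gene, 254 of 279 values for the control tissue difference and 260 of 280 for the FK866 tissue difference kept their direction where called and their side of the threshold under the alternative settings, as did 206 of 224 and 210 of 224 with 1 array left out. All FK866 changes and the interaction kept their side, with 0 subunit genes called in every setting run. Without both islet arrays numbered 2, 12 subunit genes were called in the FK866 tissue comparison in place of 7, and 74.8% of all genes in place of 64.2%. The differences then turned above 0 and passed for Atp5g3 (0.23), Atp5j (0.23), Cox6a1 (0.34) and Uqcrc2 (0.26) in the controls and for Atp5l (0.30) with FK866. With each tissue normalized on its own, and so without a common scale, Atp5j2 turned to -0.35 in the controls. The median of all genes then moved from 0.06 to -0.06 in the controls. That of the subunits moved from -0.26 to -0.58 in the controls and from -0.16 to -0.41 with FK866. The cause was not tested. With 1 array left out, the counts called ranged from 6 to 10 in the controls and from 4 to 7 with FK866. The shares of all genes called ranged from 60.1% to 67.3% and from 57.8% to 59.4%. The median islet change with FK866 ranged from -0.12 to 0.29 with 1 array left out. The replicate block called 7 subunit genes in the controls, where 66.0% of all genes were called, and 6 with FK866, where 63.8% were. It called 0 subunit genes in each FK866 against control comparison, with 0 genes in all called in hepatocytes and 1 in islets. The median hepatocyte change of -0.01 turned to 0.02 on median-centred arrays and to 0.01 without control hepatocyte array 2. The number of arrays and the spread in islets limit the precision, with an SE of 0.14 to 0.96 for the islet changes, or 0.12 to 0.26 with the block.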
